A study of Homo sapiens with 2 samples.

Results

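The peaks described here lie in the first exon of a coding transcript but too far from its start to be called promoter. Of 175546 peaks of CRTC2-bound over input RNA in the deposited list, 10 met the rule, in 6 genes: the insulin receptor substrates IRS1 and IRS2, the cadherins CELSR1, CELSR2 and CELSR3, and MFHAS1. A member is a peak whose annotation names exon 1 of a RefSeq coding transcript with 2 or more exons, is at most 10000 bp wide and lies on an assembled nuclear chromosome. Of 50454 peaks annotated to a coding exon, 15 were annotated to exon 1. The other 5 of these 15 lay in transcripts of 1 exon, and 0 of the 10 were lost to the limits on width or chromosome. The annotation calls every peak within 3000 bp of a start site promoter before any other class, so only first exons longer than that can hold a member.

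The study precipitated RNA with the CREB coactivator CRTC2 (RIP-seq) from HCCLM3 cells, a human line of hepatocellular carcinoma labelled wild type, and compared it with input RNA of the same unmodified cells. It holds 1 RIP library and 1 input library, with no replicate and no precipitation with a control antibody. No treatment, dose or time is given for either. RNA held by CRTC2 and RNA carried along by the precipitation therefore cannot be told apart, and no value below has a replicate check or a p-value of its own across libraries.

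IRS1 and IRS2 are docking proteins: the insulin and IGF-1 receptors phosphorylate them on tyrosines, and phosphoinositide 3-kinase then binds there. In the liver IRS2 carries much of the insulin signal, and IRS2 is a known target of CREB and its coactivators. CELSR1, CELSR2 and CELSR3 are large adhesion receptors of the Flamingo type, with long rows of cadherin repeats outside the cell, and act in planar cell polarity. MFHAS1 is a leucine-rich repeat protein with a GTPase-like domain, first found as a gene amplified in a soft tissue tumour. In IRS1, IRS2 and the CELSR genes the long first exon is known to encode much of the protein. How much of each peak is coding was not analysed here.

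The sequences of the peaks themselves were not analysed here. The start regions of the genes are shown because CRTC2 is known as a coactivator at cAMP response elements and because a peak covered 2 of them. RefSeq (GRCh38.p14) gave 300 bases, 250 before and 50 after the start, for CELSR2, CELSR3, IRS1 and IRS2. The letters searched on both strands were the full element TGACGTCA, found in 1.85% of 35116 such windows of all genes, and its core TGACG, which the full element contains, found in 24.6%. Neither was found in the windows of CELSR2, CELSR3 and IRS2. IRS1 held the core once, on the other strand, 33 bases after the start. Shown are the 250 bases before the start of IRS1 (chr2:226799821-226800070, minus strand), IRS2 (chr13:109786584-109786833, minus strand) and CELSR2 (chr1:109249289-109249538, plus strand), and 30 bases downstream of the start of IRS1 (chr2:226799771-226799800, minus strand), which end 50 bases after the start, with the core in capitals.
IRS1 before the start: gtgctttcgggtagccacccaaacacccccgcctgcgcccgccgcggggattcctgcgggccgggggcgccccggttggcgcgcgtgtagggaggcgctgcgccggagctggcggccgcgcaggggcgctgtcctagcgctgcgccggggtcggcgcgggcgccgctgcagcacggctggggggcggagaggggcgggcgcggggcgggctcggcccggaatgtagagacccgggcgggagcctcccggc
IRS2 before the start: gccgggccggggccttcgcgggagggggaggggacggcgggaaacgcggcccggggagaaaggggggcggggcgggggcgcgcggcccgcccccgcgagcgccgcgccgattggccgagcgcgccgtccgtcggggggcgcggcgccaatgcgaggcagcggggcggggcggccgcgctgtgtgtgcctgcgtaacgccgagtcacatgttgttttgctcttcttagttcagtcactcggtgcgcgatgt
CELSR2 before the start: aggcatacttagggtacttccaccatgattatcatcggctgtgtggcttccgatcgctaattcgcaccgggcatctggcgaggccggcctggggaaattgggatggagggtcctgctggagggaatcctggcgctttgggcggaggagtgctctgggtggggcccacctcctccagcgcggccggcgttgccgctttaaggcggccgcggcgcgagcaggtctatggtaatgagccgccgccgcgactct
IRS1 last 30 bases of the window: gcgcggaggctcCGTCAcgtgtttttctcc

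All of these windows were rich in G and C. The share was 79.3% in IRS1, above 96.7% of all windows, and 75.7% in IRS2, above 91.7%. It was 68.0% in CELSR2 and 67.0% in CELSR3, above 74.8% and 72.2% of all windows. The CELSR2 window lay inside a promoter-class peak 7224 bp wide with a fold of 2.91 on 2 fragments, and the IRS2 window inside one 717874 bp wide with a fold of 1.91 on 1 fragment. No peak overlapped the windows of IRS1 and CELSR3. These matches describe letters and show nothing about binding.

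The authors' values of a peak are its p, its q and its fold, a linear ratio of precipitated over control reads where the peak is highest. The number of RIP reads at the summit, called fragments here, and the local input level follow from the fold and the p, because the fold is fragments plus 1 over input level plus 1. In these units 1 input fragment counts as 0.634, and the lowest input level in the list is 0.0298. Only 36.4% of peaks had a level at a whole multiple of 0.634. The level is thus a local background and not in general a count of input reads at the peak. The fold is therefore capped by the fragments: a peak on 1 fragment cannot exceed 1.94, and a peak on 2 cannot exceed 2.91. The range after a fold is the exact 95% Poisson interval of its fragments, with the input level held fixed. It covers counting error only, and a lower limit under 1 means that the count alone does not place the RIP above the input. The authors' p is matched by the Poisson chance, at the input level, of more fragments than were seen. That p leaves out the observed count, so it can be small where the interval reaches below 1. Total reads per library were not used here.

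MFHAS1 had the highest first exon peak. It lay in exon 1 of 3 on chromosome 8 (8890046 to 8890566 in hg38, 521 bp), starting 3064 bp after the start site. Its fold was 3.97 (1.96 to 7.39), from 8 RIP fragments against an input level of 1.27, which is that of 2 input fragments. Without the added 1, the RIP level was 6.31 times the input (2.73 to 12.4). This is the deepest of the 10 peaks, and its interval stays above 1 with the input, itself only 2 fragments, held fixed. Since all 10 were picked for RIP above input, that is no separate evidence of enrichment. The MFHAS1 peak had a q of 0.128, the lowest among the 10 together with that of CELSR2. It was also the highest of the 4 peaks of at most 10000 bp in the MFHAS1 transcript.

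Around that peak the MFHAS1 transcript held promoter-class peaks at 982 and 1892 bp after the start. The first had a fold of 2.77 on 4 fragments, and the second a fold of 3.79 on 10 fragments with the same q of 0.128. A peak in exon 2, 96139 bp downstream along the gene, had a fold of 2.40 on 9 fragments. The 3 narrow peaks before the first intron thus lay at 2.77 to 3.97 and the exon 2 peak below them, a difference that was not tested. The only other MFHAS1 peak was 80076 bp wide in intron 1, on 1 fragment, with a fold of 1.94.

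CELSR1 came next among the narrow peaks. Its peak in exon 1 of 35 (chromosome 22, 46533722 to 46534117, 396 bp) started 3503 bp after the start site and had a fold of 3.06 (1.28 to 6.88). It held 4 RIP fragments against the level of 1 input fragment, a RIP level 6.31 times the input (1.72 to 16.2). The q was 1. Among the 30 peaks of at most 10000 bp in its transcript it stood 3rd by fold, below exon 30 (3.96, on 4 fragments) and exon 10 (3.19, on 3).

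The CELSR2 peak was of another shape. It started 3108 bp after the start site in exon 1 of 34 (chromosome 1, 109252647 to 109258481) and ran for 5835 bp, while the other 9 were between 31 and 521 bp wide. Its fold of 2.91 (1.21 to 7.99) is the ceiling for its 2 fragments, at the lowest input level of the list. The same fold and p occurred in 2731 peaks of the list, among them the CELSR2 promoter-class peak over the start site and a peak from exon 3 on. Its q of 0.128 rests on those 2 fragments, where the MFHAS1 peak of equal q rests on 8. The end of exon 1 was not used here, so how much of the 5835 bp is exon is not given.

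CELSR3 held 2 first exon peaks, both 31 bp wide, the shortest width in the list. At 3258 bp after the start (chromosome 3, 48659598 to 48659628) the fold was 1.62 (0.830 to 5.32), and at 3975 bp (48658881 to 48658911) it was 1.86 (0.956 to 6.13). Each rested on 1 fragment, and a gap of 686 bp lay between them. With the same count, the 2 folds differ only through the input level, which was 0.236 and 0.0727. Neither interval placed the RIP above the input. The authors' Poisson p of 0.0238 and 0.00252 is the chance of more than 1 fragment, which leaves out the 1 that was seen.

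**Figure D1:**
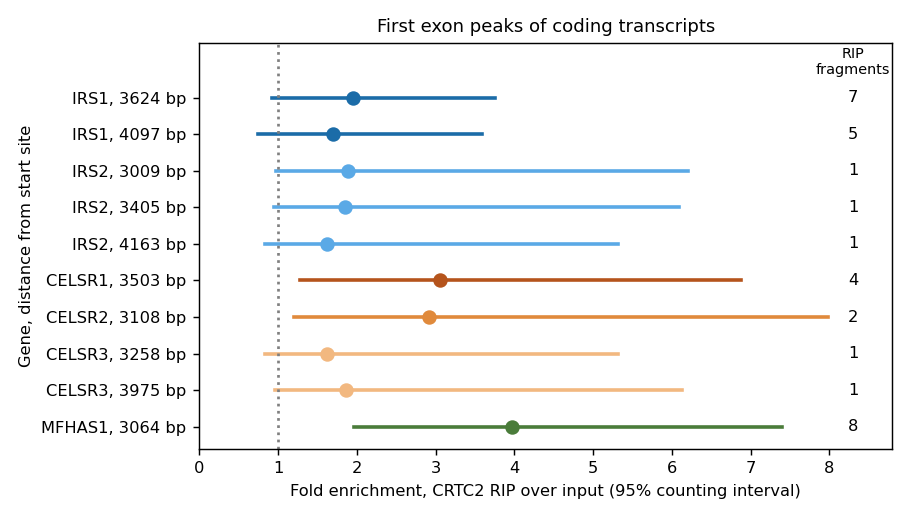
Fold enrichment of CRTC2 RIP over input (x axis, linear ratio) for the 10 first exon peaks, each named by its gene and the distance of its near edge from the start site; points are the authors' folds, bars exact Poisson 95% intervals of the RIP fragments, and numbers at the right the fragments. MFHAS1, CELSR1 and CELSR2 have intervals above 1 with the input level held fixed, and the 5 peaks on 1 fragment have folds of 1.62 to 1.89. All 10 were picked for RIP above input, so an interval above 1 is no separate evidence of enrichment.

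IRS2 held the most first exon peaks, 3, and all were shallow. They started 3009, 3405 and 4163 bp after the start site in exon 1 of 2 (chromosome 13). At 3009 bp (109783462 to 109783574) the fold was 1.89 (0.968 to 6.21). At 3405 bp (109783106 to 109783178) it was 1.85 (0.951 to 6.09). At 4163 bp (109782322 to 109782420) it was 1.62 (0.830 to 5.32). Each rested on 1 RIP fragment and had a q of 1. The order of the folds follows the input level, which was 0.0589, 0.0786 and 0.236, and their intervals overlap almost wholly.

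Elsewhere in IRS2 no narrow peak went past 2 fragments. The 3 promoter-class peaks of at most 10000 bp had folds of 1.85, 2.73 and 1.85, the second on 2 fragments at 2090 bp. The intron held a peak 25140 bp wide with a fold of 2.91 on 2 fragments. The IRS2 transcript thus had 8 peaks in all, none at q of at most 0.05.

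IRS1 differed from IRS2 in depth. Its first exon peaks had 7 and 5 RIP fragments against 1 in each of the 3 of IRS2, while their folds were 1.95 and 1.70 against 1.62 to 1.89 in IRS2. The peak at 3624 bp (chromosome 2, 226795910 to 226796196) had a fold of 1.95 (0.930 to 3.76) at an input level of 3.10. The peak at 4097 bp (226795592 to 226795723) had a fold of 1.70 (0.742 to 3.58) at the level of 4 input fragments. Both had a q of 1. Without the added 1, the RIP level was 2.26 times (0.907 to 4.65) and 1.97 times (0.641 to 4.60) the input. IRS1 thus had more RIP reads and a higher local input level at its first exon peaks than IRS2. The intervals of the deeper counts still reach below 1. The authors' Poisson p of 0.0143 and 0.0444 is the chance of more than 7 and more than 5 fragments, which leaves out the observed counts.

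IRS1 also had peaks on both sides of these. Promoter-class peaks lay at 185, 1213, 1756, 2286 and 2962 bp, with folds of 2.63, 2.55, 1.81, 3.54 and 2.24. The peak at 2286 bp, on 15 fragments, had a q of 0.0415. It was the only one of the 90 peaks of at most 10000 bp in the 6 genes with a q of at most 0.05, a limit that 1.49% of all peaks in the same limits of width and chromosome reached. After the 2 first exon peaks came a peak annotated 3′ UTR at 4697 bp, with a fold of 2.40 on 9 fragments, and intron peaks from 5185 bp on. The coding sequence of IRS1 ends within its first exon, so that UTR peak lies before the intron. The highest fold of the transcript was 4.20, on 7 fragments in the 3′ UTR 64292 bp after the start, with a q of 0.128.

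**Figure D2:**
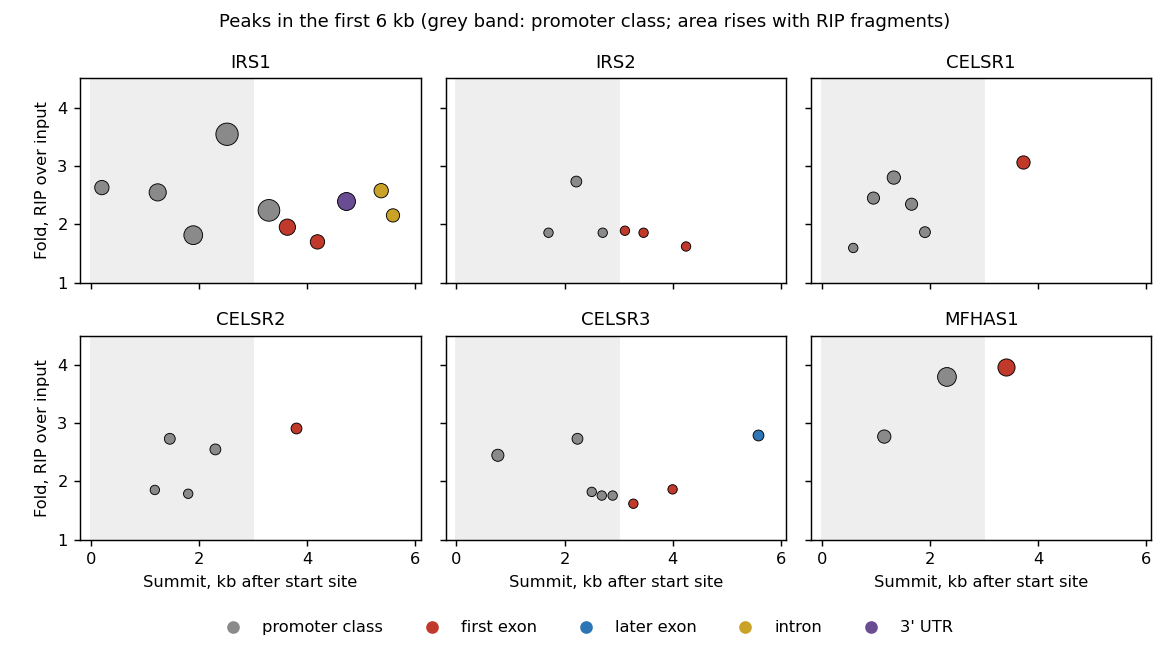
Fold enrichment of RIP over input (y axis, linear ratio) against the distance of the summit from the start site in kb (x axis) for peaks of at most 10000 bp with a summit in the first 6 kb of the 6 genes, by annotation class; a larger point has more RIP fragments and the grey band marks the 3000 bp of the promoter class. IRS1 has the largest points, up to 15 fragments, and the red first exon peaks lie at 1.62 to 3.97, beside grey promoter-class peaks at 1.59 to 3.79.

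The limit of 3000 bp cuts through a run of peaks. The first exon peaks nearest to it started at 3009 bp in IRS2 (fold 1.89), 3064 bp in MFHAS1 (3.97) and 3108 bp in CELSR2 (2.91). Just inside the promoter class were peaks at 2962 bp in IRS1 (2.24, on 14 fragments), 2875 bp in CELSR3 (1.76) and 2691 bp in IRS2 (1.85). The IRS1 peak at 2962 bp had its summit at 3290 bp, beyond the limit, since the class is set by the near edge. The 6 genes held 25 promoter-class peaks of at most 10000 bp, with a median fold of 2.45 (1.59 to 3.79), against a median of 1.88 (1.62 to 3.97) in the 10 first exon peaks. The median number of fragments was 2 in the former and 1.5 in the latter. The promoter-class count includes the CELSR2 peak over the start site, whose summit lies upstream. These ranges overlap, and the difference was not tested.

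In the CELSR transcripts the first exon can be set beside the later exons. Peaks of at most 10000 bp were annotated to 21 of 35 exon numbers in CELSR1, 6 of 34 in CELSR2 and 9 of 35 in CELSR3. Each peak carries 1 exon number, though a wide one such as the CELSR2 peak of 8183 bp annotated to exon 3 can run over several exons. Protein-coding genes with an exon peak had a median of 4 such peaks (quartiles 2 and 7), and CELSR1 had 21, CELSR3 11 and CELSR2 6. These counts were not adjusted for exon number or length, and the CELSR transcripts have 34 or 35 exons. Later exon peaks had folds of 1.55 to 3.96 in CELSR1, 1.89 to 2.91 in CELSR2 and 1.73 to 3.24 in CELSR3. The first exon peaks lay within these ranges in CELSR1 and CELSR2, and the lower CELSR3 peak lay below its range by less than its counting interval. CELSR1 also had a peak 26617 bp wide from exon 4 on, with a fold of 4.86 on 4 fragments and a q of 9.18e-05, in which the lowest input level of the list was reached.

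**Figure D3:**
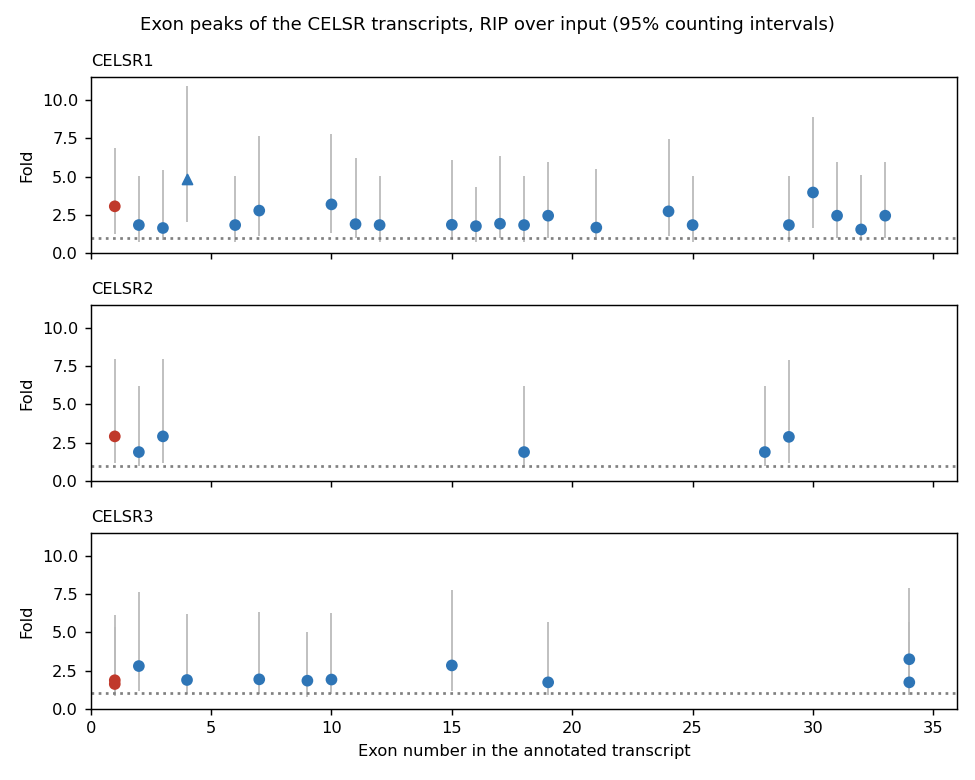
Fold enrichment of RIP over input (y axis, linear ratio) by exon number (x axis) for the exon peaks of CELSR1, CELSR2 and CELSR3; red points are first exon peaks, blue points later exons, the triangle a CELSR1 peak wider than 10000 bp, and lines exact Poisson 95% intervals. The first exon peaks lie at 1.62 to 3.06, and the lower CELSR3 one lies under all later exon peaks of that gene, with an interval that overlaps theirs.

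All 10 first exon peaks were assigned by the authors' table to the gene of their own exon. For coding internal exon peaks this held in 55.2% of 45607 cases, and for the 35 later exon peaks of the 6 genes in 8. The table assigns the gene with the nearest start site, and the first exon peaks began only 3009 to 4163 bp after their own. Their match therefore follows largely from the rule, while the later exon peaks of these genes lay farther from the start. Of the later exon peaks of CELSR1, 18 were assigned to TRMU. For CELSR2, 3 were assigned to PSRC1, and for CELSR3, 5 to MIR4793 or SLC26A6. The MFHAS1 exon 2 peak was assigned to CLDN23. A count of these genes by assigned gene would keep the first exon peaks and lose most later ones.

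The depth of the first exon peaks was set beside that of other parts of the list in the same limits of width and chromosome. Of the 10, 5 rested on 1 RIP fragment (50%, Clopper-Pearson 95% interval 18.7 to 81.3%). The share was 12.1% (11.8 to 12.5%) in 45607 coding internal exon peaks, 18.3% (16.9 to 19.7%) in 3043 coding last exon peaks and 17.3% (16.1 to 18.7%) in 3253 peaks of the 5′ UTR. It was 46.6% (45.5 to 47.7%) in 8517 promoter-class peaks 1000 to 3000 bp after a start, and 43.1% over all 158595 peaks in these limits. The first exon share thus stood near that of all peaks and that of the promoter class. Peaks of 1 library are not replicates, so this is a description and the difference was not tested.

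None of the first exon peaks, 0 of 10, had a q of at most 0.05 (interval 0 to 30.8%), against 1.49% of all peaks in the same limits. It was 3.03% in internal coding exons, 0.887% in last exons, 2.83% in the 5′ UTR and 1.08% in the promoter class 1000 to 3000 bp after a start. A fold of at least 4 was also reached by 0, against 1.70% of all. At these background shares 10 peaks are too few to show a lower share, and the interval for q, up to 30.8%, includes higher ones. Of the 10, 6 rested on at most 2 fragments, against 57.8% of all peaks in these limits. Those 6 could reach neither limit, since 2 fragments at the lowest input level give a fold of 2.91 and a q of 0.128. The interval also treats the 10 as separate draws, though IRS1, IRS2 and CELSR3 hold several each. The median fold was 1.88 in first exons, 1.98 in internal and 2.02 in last coding exons, 1.94 in the 5′ UTR and 1.86 over all peaks.

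**Figure D4:**
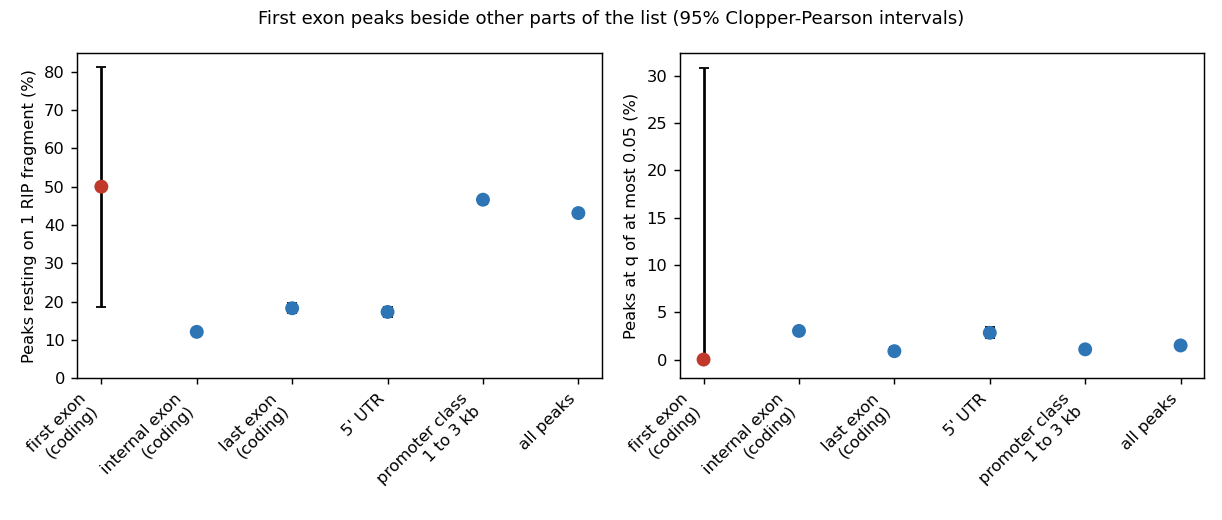
Share of peaks resting on 1 RIP fragment (left, percent) and share at q of at most 0.05 (right, percent) in coding first exon peaks (red) and in other parts of the list (blue), within the same limits; bars are Clopper-Pearson 95% intervals. The first exon shares are 50% and 0%, with intervals that span most of the left and right axes.

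Of the gene lists used, those of docking proteins and of large cadherins held members. The list counts here and below take only peaks of at most 10000 bp on assembled nuclear chromosomes. The docking list of 25 genes had a peak within its own transcript in 17, or 68.0%, against 56.8% of 20052 protein-coding genes. Among the 25 only IRS1 had a peak with q of at most 0.05, or 1 gene, against 7.46% of protein-coding genes. After IRS1 (highest fold 4.20) came the adaptor SH2B2 (3.67, on 6 fragments at most) and the receptor-binding adaptor GRB14 (3.52, on 3 at most), neither at that q. The 8 without a peak were DOK2, DOK3, DOK5, DOK6, GAB3, IRS4, SHC2 and SHC4, so of the 3 IRS genes listed IRS1 and IRS2 had peaks and IRS4 did not. IRS1 had 22 peaks of at most 10000 bp and IRS2 had 6.

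The list of protocadherins, FAT, Dachsous and CELSR cadherins had a peak in 30 of 75 genes (40.0%), with a median highest fold of 1.94 against 2.89 over all protein-coding genes with one. Within the width limit, those at q of at most 0.05 were FAT1, a giant cadherin (4.85), and the protocadherin PCDH7 (5.10), or 2 of 75 (2.67%, against 7.46% of protein-coding genes). CELSR1 followed with 3.96. Beyond the width limit CELSR1 also had the peak of 26617 bp from exon 4 on, with a fold of 4.86 on 4 fragments and a q of 9.18e-05. PCDH7 also held 2 peaks of 1.68 and 2.08, on 6 and 9 fragments, in the first and only exon of a coding transcript, outside the rule for that reason. The others were 2 peaks under a gene identifier (643314) without a symbol in the table used, with folds of 2.76 and 1.68, and 1 in KIF4B, a kinesin, of 1.89 on 1 fragment. These 5 peaks started 3208 to 4916 bp after a start and had a q of 1.

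No first exon peak lay in the lists of m6A writers, erasers and readers, CREB and CRTC signalling, P-body and stress granule proteins, chromatin regulators, zinc finger factors, kelch and BTB adaptors, liver cancer genes or translation factors, and MFHAS1 was in none of the lists. First exon peaks lay in only 6 of all 20052 protein-coding genes. A count of 0 was therefore likely for each list and for any single gene, and says nothing about them. CRTC2 and YTHDF2, the proteins the study is about, had 7 and 13 peaks in their own transcripts, 0 of them a first exon peak by the rule. The line's label was set beside marker lists. A peak there does not measure expression, and only 1.49% of all peaks in these limits had a q of at most 0.05. Hepatocyte markers had a peak in 12 of 22 genes (54.5%, near the 56.8% of all protein-coding genes), among them ALB but not APOA1, TTR or SERPINA1. Blood and immune markers had one in 2 of 16, stellate, endothelial and fibroblast markers in 5 of 14 and neuronal markers in 4 of 12. A peak at q of at most 0.05 was held by 2 hepatocyte markers (9.09%, against 7.46% of protein-coding genes) and by 0 of the other markers.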

How the data were processed

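RIP-seq of CRTC2 and its input in HCCLM3 cells gave 1 library each. HISAT2, MACS2 and the build hg38 are named in the submitters' processing notes, and no version or parameter was found in the labels. The authors deposited 1 annotated peak list, with the fold as a linear ratio, the −log10 p and −log10 q of each peak as p-values and q-values on that scale, a score and positions in bp, per the file headers. The −log10 p and −log10 q columns have spoiled headers and were identified by place and values. The deposited score equals 10 times −log10 p, rounded down, and was not used. The lowest −log10 p was 1.30.

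Fragments and input level were recovered in Python 3.11.15 with scipy 1.17.1: a whole number met fold and p within 0.001 for 100% of peaks, a single one for 97.5%, and for each of the 10 members. The recovery was tested on simulated data made with the same formulas. That test covers the inversion only and cannot show how the authors' fold and p were made. The fold was taken as RIP over the input library.

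A peak was counted for the gene of its exon or intron annotation, or, in the promoter class and UTRs, for the assigned gene whose transcript it overlapped. Members, gene lists and limits were chosen with earlier results of these data known. Named were CRTC2, YTHDF2, the genes of the highest q, fold and number of first exon peaks, which are all 6 genes, and up to 3 genes of each list that holds one. Genes named as another gene's assignment, single-exon neighbours and genes without a peak were named after their values were seen. With 1 library per group no test was run. A search of the peaks for m6A motifs was planned and not run, since their sequence was not used here.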

Additional observations from a re-analysis of the deposited data

How the results depend on the processing

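Neither the values nor the alternatives have replicates, and counting error alone spans a range of several fold at most of these peaks. The number of first exon peaks (10, in 6 genes) fell to 0 peaks in 0 genes at q of at most 0.05, at −log10 q of at least 5 and at a fold of at least 4. With at least 5 fragments 3 peaks in 2 genes were left, MFHAS1 and IRS1. Taking the highest peak per gene, or merging peaks of a gene within 1000 bp, left 6. Alternatives added after seeing the data gave 5 peaks with at least 2 fragments, with a median fold of 2.91 in place of 1.88, and 34 peaks when promoter-class peaks after the start of the same genes were included, of which 2.94% had a q of at most 0.05. With single-exon transcripts included there were 15 peaks in 9 genes. A width of at most 1000 bp left 9 peaks in 5 genes, without CELSR2, and other contigs or the match of assigned and exon gene changed nothing. Requiring the summit inside the exon was not run, since exon positions were not used here. No paired analysis was possible because each group has 1 library.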
